A study of Mus musculus with 8 samples.

Results

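The livers of 5 wild-type mice after 25 weeks of a Western-style diet are described here by themselves, as a transcriptome: which genes were most abundant, which classes of gene took up the counts, and how far 1 liver stood from the next. They were chosen by their genotype label, wild type, and make up 5 of the 8 libraries of the series; the other 3, from mice lacking 1 copy of Midn, enter no value below. Every donor was a male C57/BL6 mouse, and the diet was rich in fat, fructose and cholesterol. Each library comes from 1 liver with its own number in the sample title, and the labels give neither age, litter, cage, batch nor time of day. Livers were numbered 1 to 5 in accession order, and the numbers carry no further meaning. With no second group there is no test here: values are described over 5 livers, and n is 5 throughout.

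The liver is mostly hepatocytes, which secrete the proteins of blood plasma, build and burn fat, make bile acids, store glycogen and clear drugs and hormones. A minority of other cells lives between them: macrophages called Kupffer cells, sinusoidal endothelium, stellate cells that store vitamin A and can lay down collagen, bile duct cells and lymphocytes. Diets of this kind load hepatocytes with fat droplets and, over months, can add inflammation and scarring that differ in degree from one animal to another. In bulk RNA, fewer cells of a type and less RNA per cell cannot be told apart.

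The count total of a liver ran from 18687680 to 21064473, and between 16754 and 17607 of the 25078 genes in the table had at least 1 count. Of the 3 genes given as signs of this tissue and diet, albumin (Alb), the main protein of plasma, stood at 32625, 30737, 28918, 31218 and 26682 CPM in livers 1 to 5, where CPM is counts per 1000000 of the TMM-scaled total. Scd1, the desaturase that makes oleate, measured 23324, 28236, 16663, 36528 and 41911 CPM, and Plin2, a coat protein of fat droplets, 462, 524, 313, 623 and 535 CPM. By mean RPKM the 3 ranked 2, 7 and 235 of the 25078 genes. In CPM Alb varied least, with a coefficient of variation (CV, the SD as a share of the mean) of 7.65%, Plin2 of 23.4% and Scd1 of 34.4%; Scd1 was lowest in liver 3 and highest in liver 5.

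The 5 libraries were not evenly spaced, and that touches every result that follows. Livers 1 and 3 differed by over 2-fold in 310 of 13487 genes with a mean of at least 1 CPM, and livers 4 and 5 in 335, whereas livers 3 and 5 did so in 3754 (27.8%). Liver 2 lay between: 893 genes separated it from liver 5 and 2292 from liver 3. On the first principal component of log2 CPM, which held 74.0% of the variance, livers 1 to 5 sat at -42.7, 10.8, -62.6, 38.1 and 56.4. On the second, with 17.2%, liver 2 was not between the others: it was highest at 37.6, and liver 4 lowest at -27.8. The RNA component of RNase P, Rpph1, took 0.331, 0.899, 0.304, 0.673 and 1.06% of the counts in livers 1 to 5, lowest in the same livers 1 and 3. The TMM factors were 1.08, 0.986, 1.22, 0.903 and 0.851. Rpph1 has no poly(A) tail and the libraries were made with an mRNA kit; the part of this share in the results below was not tested.

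Abundance was very uneven. On the deposited RPKM scale, which divides by exon length, the first 19 of the 20 leading genes, in order, were Rpph1, Alb, Mup20, Rmrp, Fabp1, Apoe, Scd1, Cyp3a11, Rn45s, Apoc1, Hpx, Mgst1, Trf, Mup3, Selenop, Apoa1, Serpina3k, Ahsg and Gc. They fall into a few trades. Alb, Hpx (the heme carrier hemopexin), Trf (transferrin), Selenop (a selenium carrier), Apoe, Apoc1, Apoa1 (lipoprotein proteins), Serpina3k, Ahsg (fetuin-A) and Gc (the vitamin D carrier) are secreted into plasma. Fabp1 binds fatty acids in the cytosol, Scd1 desaturates them, Cyp3a11 oxidises drugs and bile acids, and Mgst1 is a membrane glutathione transferase. Mup20 and Mup3 are major urinary proteins, pheromone carriers that male mice make in quantity. Rpph1 and Rmrp are the RNAs of RNase P and RNase MRP, and Rn45s is the ribosomal RNA precursor.

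Means concealed large differences in how steady these genes were. Alb averaged 13638 ± 1064 RPKM (SD, n = 5), from 15014, 13363, 13704, 14020.5 and 12087 RPKM in livers 1 to 5. Its 5 values stayed within 1.22-fold of each other on the CPM scale, the narrowest range of the 20 leading genes. On the count total alone the range of Alb was wider than that of Apoe. Rpph1 had the higher mean, 19716 ± 11806 RPKM, but its livers gave 8904, 25129, 7501, 21209 and 35836 RPKM, so that Alb was ahead of it in livers 1 and 3. Mup20 measured 4698, 9545, 3133, 12938 and 33123 RPKM, and in liver 5 it exceeded Alb. Fabp1, 6512 ± 4837 RPKM, went from its lowest value in liver 3 to 8.42 times that in liver 5 on the CPM scale: 1612, 3116, 895, 4796 and 7537 CPM. Apoe, which clears remnant lipoproteins, was far steadier at 6410.2 ± 903 RPKM, a CV of 14.4% in CPM.

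**Figure D1:**
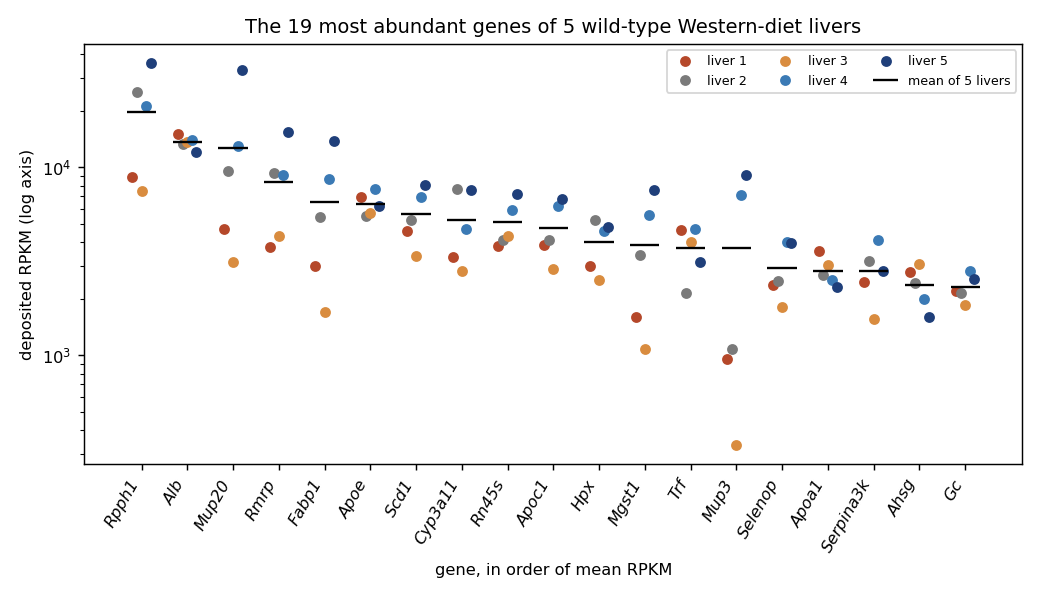
Deposited RPKM (vertical log axis) of the first 19 genes by mean, in order from left to right; each point is 1 liver and the black bar is the mean of 5. Alb and Apoe points lie close together, while Mup3 runs from 1 low point in liver 3 to 2 high points in livers 4 and 5.

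The order itself was therefore loose. Of the 19 pairs of neighbours among these 20 genes, only 1, Rmrp above Fabp1, held in all 5 livers, and the other pairs do not differ beyond their spread. Membership was firmer than order: 14 of the 20 genes were among the leading 20 of every liver. In 14 of the 20 genes liver 3 had the lowest CPM, and in 15 liver 4 or liver 5 had the highest; over all genes with at least 1 CPM these shares were 30.2% and 38%. Ranking by counts without dividing by length put Rn45s first and kept 15 of the 20; the genes that left were the short Apoa1, Apoc1, Fabp1, Mup3 and Rmrp.

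Few genes held most of the counts. The leading gene by mean share, Rn45s, took 3.11% of the counts, the first 10 genes 17.0%, the first 100 34.8% and the first 500 52.3%. By the mean share, 418 genes held 50% and 5067 held 90%. The livers differed in this concentration: 462, 405, 570, 326 and 278 genes made up 50% of the counts in livers 1 to 5, so liver 3 had the flattest distribution and liver 5 the steepest. Only 93 genes reached a mean of 1000 CPM, and these alone held 34.1% of the counts.

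The promoters of the abundant genes had a composition of their own, which RefSeq's promoter table for build GRCm38.p6 allows to be described. In 75 promoters matched to 65 of the 100 genes highest in RPKM, the letters TATAAA, on the gene's strand and wholly between 40 and 20 bases before the start, were found in 6 (8.0%). The share was 1.3% over 13553 promoters of all genes with at least 1 CPM and 2.39% over 22216 promoters of the whole table. The median promoter of the 100 genes held 5 CG pairs in its 300 bases and was 49.3% G or C, against 19 pairs and 60.3% for all genes with at least 1 CPM. CACGTG, which reads the same on both strands, was in 1 of the 75 and in 9.61% of the larger set. The 100 bases before the start are shown for 2 of the leading genes, with TATAAA in its window and every CG pair in capitals: Fabp1 (chr6:71199779-71199878, plus strand) has a TATAAA that starts 30 bases before the start site, and Alb (chr5:90460770-90460869, plus strand) has none in that window.

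Fabp1: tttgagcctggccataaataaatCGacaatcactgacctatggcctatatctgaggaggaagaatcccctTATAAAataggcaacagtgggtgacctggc
Alb: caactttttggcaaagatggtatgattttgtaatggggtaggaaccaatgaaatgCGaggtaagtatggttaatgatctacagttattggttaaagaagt

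Both stretches held 1 CG pair. A match is a description of letters and marks no site, and no match says only that those letters are not in the window.

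By class of gene, protein-coding genes of the RefSeq gene table held 94.1% ± 0.689 of the counts (mean and SD of 5 livers) and long noncoding RNAs 1.47% ± 0.28; Rn45s, which that table did not match, lies outside both. The deposited table has 0 entries for genes encoded in the mitochondrial genome, so shares are of nuclear transcripts. Secreted plasma proteins, a list of 40 genes from Alb to the fibrinogens, took the largest share of the lists examined, 10.02% ± 1.57, with 11.6, 9.78, 11.3, 9.7 and 7.68% in livers 1 to 5. Liver 5 gave the smallest of these shares and liver 1 the largest. Shares are of the raw count total of a liver, whereas CPM is scaled by TMM, so the orders of livers on the 2 scales can differ. Apolipoproteins held 4.52% ± 0.441 and lipogenic enzymes 3.33% ± 0.633, of which Scd1 alone held 2.84%. Cytochrome P450 enzymes of drug and steroid metabolism held 2.0% ± 0.367, cytosolic ribosomal proteins 1.71% ± 0.395, and nuclear genes of oxidative phosphorylation 1.15% ± 0.332. Fatty acid oxidation took 0.918% ± 0.133, the urea cycle 0.799% ± 0.0842 and collagens 0.277% ± 0.147. Counts grow with transcript length, and on shares made from RPKM 29 of the 47 lists and families with a share moved by more than their SD over the livers. Ribosomal proteins then held 4.68%, oxidative phosphorylation 3.0%, major urinary proteins 3.31% in place of 1.47%, lipogenesis 1.58%, solute carriers 1.33% and collagens 0.103%.

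Some shares varied nearly as much as they measured. Major urinary proteins held 0.592, 1.06, 0.39, 1.82 and 3.5% of the counts in livers 1 to 5, an 8.96-fold range with liver 5 on top and liver 3 at the bottom. Solute carriers, 377 genes of membrane transport, were the opposite: 2.01, 2.06, 1.95, 1.99 and 2.01%, a range of 1.05-fold, although 86 of their 248 members with at least 1 CPM differed over 2-fold one by one, close to the 37.7% of all genes given next. Carboxylesterases kept to 0.381, 0.35, 0.337, 0.381 and 0.343%.

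Across all 13487 genes with a mean of at least 1 CPM, the median CV over the 5 livers was 23.3%, with quartiles of 14.6 and 36.2%. Counting error alone gives a median CV of 5.08% at these depths. The highest liver exceeded the lowest by a median of 1.76-fold. Over 2-fold separated them in 5088 genes, 37.7% of those examined, and over 4-fold in 1259, or 9.33%; where a liver had no count, a floor of 3 counts in that liver gave the same counts. These shares are the background against which each list below is read. The spread did not shrink with level beyond the first step: the median CV was 30.1% for genes of 1 to 10 CPM, 20.2% at 10 to 100, 22.2% at 100 to 1000, and 28.2% for the 93 genes above 1000 CPM, of which 51 differed over 2-fold. The rise at low level coincides with a median counting CV of 11.3%; among the 93 abundant genes the counting CV was 0.549%.

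**Figure D2:**
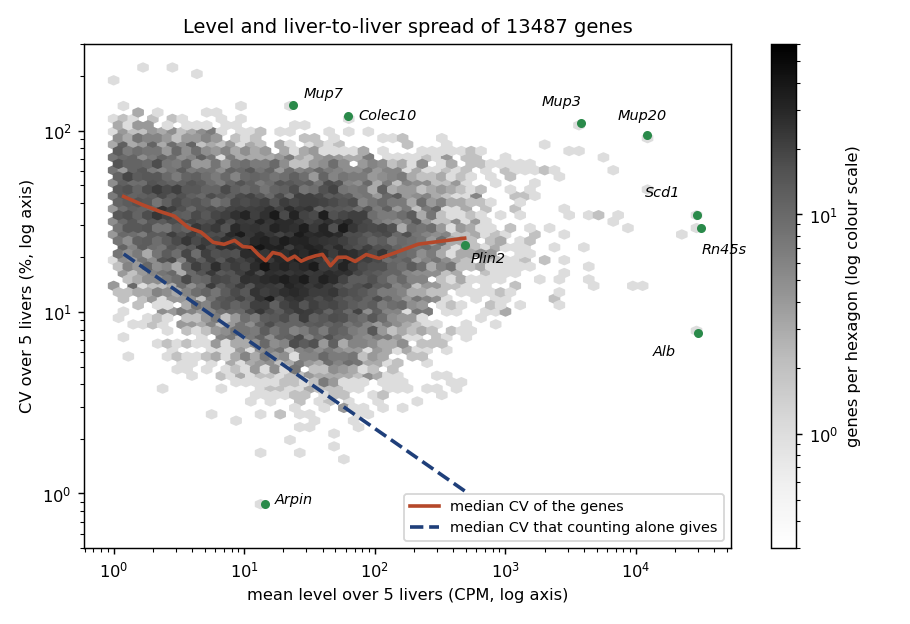
Mean level over 5 livers in CPM (horizontal log axis) against the CV over the livers in percent (vertical log axis) for 13487 genes; grey shading gives genes per hexagon, the solid line the median CV and the dashed line the median CV from counting alone, each in 30 groups of equal size by level. The solid line stays near 20% or above while the dashed line falls, and Alb lies far below other genes of its level such as Scd1 and Mup20.

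Where genes differed over 2-fold, livers 3 and 5 were mostly at the ends. Liver 3 was the highest in 1795 of the 5088 genes (35.3%) and the lowest in 1677; liver 5 was the highest in 1765 (34.7%) and the lowest in 1344. Livers 1 and 3 were both below the other 3 in 1979 genes (38.9%) and both above them in 1968 (38.7%), and 1141 (22.4%) followed neither order. Restricted to livers 2, 4 and 5, the median CV was 14.6% and 1328 genes differed over 2-fold; restricted to livers 1 and 3, it was 8.48% with 450 genes. A range over fewer livers is narrower by construction, and the labels give no batch to set beside this order.

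Among genes with a mean of at least 10 CPM, the 15 with the highest CV were Mup7, Colec10, Mup3, Sult1e1, Fabp7, Sdr9c7, Ltbp2, Leap2, Adgrg1, Syt7, H19, Zfp982, Sult2a8, Cyp2c37 and Mup20. In 11 of the 15 the highest value was in liver 4 or 5, in 3 it was in liver 3, and in H19 it was in liver 2. Colec10, a collectin that binds sugars on microbes, stood at 10.2, 11.2, 2.22, 142 and 148 CPM, livers 4 and 5 far above the other 3 with no value between. Sult1e1, the sulfotransferase that inactivates estrogens, gave 4.1, 18, 5.15, 75.2 and 39.1 CPM, again highest in livers 4 and 5. Leap2, a secreted liver peptide that blocks the ghrelin receptor, had a lowest value 30.1-fold below its highest: 14.3, 48.6, 5.5, 92.5 and 166 CPM. The order ran the other way for Ltbp2, a protein of the extracellular matrix, with 29.1, 11.9, 51.7, 3.6 and 4.59 CPM, and for the adhesion receptor Adgrg1, with 15.1, 7.93, 30.6, 3.19 and 2.33 CPM; both were highest in liver 3 and low in livers 4 and 5. H19, an imprinted long noncoding RNA that is active in fetal liver, followed neither order, at 9.27, 34.4, 9.87, 4.0 and 5.98 CPM.

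At the other end the 15 genes with the lowest CV were Arpin, Atp9b, Mkrn1, Slbp, Mapk6, Nlk, Sin3a, Ccdc186, Sav1, Prpf4b, Hif1an, Acap2, Mapk1ip1l, Prkaa1 and Tk2. Arpin, an inhibitor of the actin-branching Arp2/3 complex, measured 14.5, 14.4, 14.2, 14.5 and 14.4 CPM, a CV of 0.873%. Its counting CV was 6.02%, so values this close are tighter than counting alone gives on average, and the same held for all 15. Their order among themselves is therefore within counting error. Several act in signalling: Mapk6 is an atypical MAP kinase (47, 47.2, 47.6, 48.2 and 45.9 CPM), Nlk a kinase of the Wnt pathway (23, 24, 23.4, 23.8 and 24.2 CPM), and Prkaa1 a catalytic subunit of the energy sensor AMPK (26.2, 27.4, 27.3, 28 and 27.8 CPM). Sin3a, the scaffold of a histone deacetylase complex, gave 51.5, 51, 49.3, 52.4 and 51.6 CPM, and Hif1an, the asparagine hydroxylase that restrains HIF, 32.5, 33.7, 33.7, 31.9 and 32.5 CPM. Mkrn1 is a ubiquitin ligase, Slbp binds the stem-loop of histone messages, and Tk2 is the mitochondrial thymidine kinase.

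Promoter composition differed between the extremes of spread as well. Genes with at least 10 CPM were ordered by CV; in the highest decile, 21 of 876 promoters (2.40%) held TATAAA in the window given above, and in the lowest decile 8 of 993 (0.806%), against 1.24% over all 9441 promoters at this level. The median number of CG pairs was 15 in the highest and 22 in the lowest decile. These deciles were alike in level, with median means of 41.3 and 39.6 CPM, but not in exon length, with medians of 2234 and 3714.5 bases. Stretches of 100 bases before the start are shown for Thrsp (CV 90.8%; chr7:97417551-97417650, minus strand), a lipogenic regulator, and for the steady Arpin (chr7:79935265-79935364, minus strand) and Tbp (CV 3.76%; chr17:15499788-15499887, plus strand), the TATA-binding protein; capitals again mark CG pairs, and none of the 3 has TATAAA in the window.

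Thrsp: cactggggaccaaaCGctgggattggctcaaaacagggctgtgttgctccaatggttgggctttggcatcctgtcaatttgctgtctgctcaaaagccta
Arpin: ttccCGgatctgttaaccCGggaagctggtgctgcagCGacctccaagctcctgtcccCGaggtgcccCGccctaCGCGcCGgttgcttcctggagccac
Tbp: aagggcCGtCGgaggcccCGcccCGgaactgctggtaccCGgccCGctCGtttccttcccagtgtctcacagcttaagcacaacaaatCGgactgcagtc

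Thrsp showed 1 CG pair in this stretch, and Arpin and Tbp 8 each. Single genes did not follow the medians: Alb had as few CG pairs in its stretch as Thrsp, and a CV of 7.65%.

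The lists of liver functions that follow fell on both sides of the background of 37.7%. Below it were the fatty acid oxidation genes, of which 5 of 30 differed over 2-fold, with a median CV of 20.5%; the factors and proteins that define hepatocytes, 4 of 21 and 16.7%; and secreted plasma proteins, 10 of 39 and 19.1%. Without TMM, on the count total alone, the plasma proteins gave 17 of 39 beside a background of 44.9%. Without liver 1 they gave 6 and without liver 5 they gave 5, beside 34.3% and 31.3% of all genes. Fatty acid oxidation gave 3 without liver 1 or liver 3, beside 34.3% and 29.8% of all genes. The oxidation genes still shared an order: 21 of 30 were lowest in liver 3 and 20 highest in liver 4 or 5, against 30.2% and 38% of all genes. Acadl, the long-chain acyl-CoA dehydrogenase, was the steadiest oxidation gene at 167, 148, 141, 160.1 and 149 CPM, and Acaa1b, a peroxisomal thiolase, the most abundant at 1018, 769, 691, 1225 and 1044 CPM. The widest was Cyp4a10, a fatty acid hydroxylase that PPAR alpha induces, with 246, 105, 86.8, 98.3 and 101 CPM: liver 1 stood alone above 4 livers that lay close together. Among hepatocyte factors Onecut1 varied most, 27.7, 18.4, 36.2, 8.3 and 6.16 CPM, highest in liver 3 and lowest in liver 5. Azgp1, a secreted zinc-binding glycoprotein, was the least steady plasma protein at 1148, 2007, 846, 2455 and 2654 CPM.

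Acute-phase genes were mixed, 14 of 24 over 2-fold. Haptoglobin (Hp), which binds free hemoglobin, had the highest RPKM of that list and stayed between 2308 and 3339 CPM, and the copper carrier ceruloplasmin (Cp) had a CV of 12%. Hamp2, a relative of the iron hormone hepcidin, went from 2.7 CPM in liver 1 to 17.9 in liver 5. Of apolipoproteins 6 of 14 differed over 2-fold: Apof was steadiest at a CV of 12.1%, while Apoa4, which responds to dietary fat, gave 1335, 1396, 794, 3809 and 2665 CPM and was highest in liver 4. Without liver 3 the apolipoprotein count was 2, and on the count total alone it was 3, beside 29.8% and 44.9% of all genes.

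Genes of fat synthesis and storage were wider than the background, 13 of 22 in lipogenesis and 11 of 19 in the lipid droplet list, and were low in liver 3. The median member of the lipogenic list lay at -0.03, -0.23, -0.53, 0.14 and 0.32 in livers 1 to 5, in log2 units of deviation from the gene's mean over the livers. Thrsp, an abundant target of carbohydrate signals, ranged widest at 127, 217, 40.2, 519 and 776 CPM. Dgat1, which adds the last acyl chain to triglyceride, was steadiest at 17.6, 20.3, 17.3, 15.7 and 18.1 CPM. Between them lay the core of the pathway, given here although its values were seen first: fatty acid synthase (Fasn) measured 778, 361, 369, 592 and 608 CPM and Srebf1, its regulator, 294, 187, 188, 276 and 240.3 CPM. For both, liver 1 was the highest and the order of Thrsp and Scd1 was not followed, so the lipogenic genes did not move as 1 block.

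On the droplet itself, Plin2 was the most abundant coat protein by RPKM and Hsd17b13, a droplet-bound retinol dehydrogenase, the steadiest member at 431, 398, 362, 439 and 334 CPM. Cidea, a droplet fusion protein that is scarce in lean liver, was at 0.279, 1.19, 0.624, 18.5 and 9.87 CPM. Livers 4 and 5 stood apart from the other 3. The fatty acid transporter Cd36 (376, 868, 272, 1147 and 1297 CPM) and the lipase inhibitor G0s2 (42.4, 129, 32.2, 265 and 411 CPM), both chosen after their values were seen, were lowest in liver 3 and highest in liver 5. Plin2, Hsd17b13 and Cidea did not have both of these extremes. Cholesterol synthesis was near or below the background, 8 of 25. The HMG-CoA synthase Hmgcs1 stood at 89.1, 96.5, 74.8, 88.4 and 86.2 CPM and the isomerase Idi1, the widest, at 4.8, 7.71, 3.7, 6.5 and 16.7 CPM. The cholesterol count was 4 without liver 3 and 5 without liver 5, beside 29.8% and 31.3% of all genes.

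Carbohydrate and nitrogen genes kept close to the background: 5 of 12 in gluconeogenesis and glycogen, 6 of 16 in glycolysis and fructose use, and 3 of 9 in the urea cycle. Pck1, which commits oxaloacetate to glucose, was higher in livers 1 and 3, at 2351, 1183, 2417, 1034 and 967 CPM. Ketohexokinase (Khk), which takes fructose into metabolism, had the reverse order, 139, 152, 89.8, 309 and 428 CPM. Arginase (Arg1) gave 903, 2038, 790.2, 1692 and 2298 CPM, and glutamine synthetase (Glul), made by hepatocytes around the central vein, 657, 298, 251, 773 and 767 CPM. For Glul, livers 2 and 3 were low together, an order that neither Pck1 nor Khk shared. The count for gluconeogenesis and glycogen was 3 without liver 3, without liver 4 or on the count total alone. The shares of all genes were then 29.8, 35.5 and 44.9%.

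Enzymes that clear drugs and steroids were wide: 26 of 41 P450 genes and 30 of 41 conjugating enzymes differed over 2-fold, 11 and 12 of them over 4-fold. Cyp3a11 was at 7260.3, 17638, 5883, 10427 and 16760.0 CPM, highest in livers 2 and 5. The extreme was Cyp2b9, a target of the receptor CAR that female mice express more, with 0.0931, 0.108, 0.039, 19.2 and 25.5 CPM. In livers 1 to 3 it rested on 2, 2 and 1 counts, and in livers 4 and 5 on 331 and 406. Mgst1 (2377, 5375, 1549, 8464 and 11429 CPM) differed 7.38-fold in the same order as Scd1, and Gstm6 (50.2, 46.7, 39.3, 42.8 and 47.4 CPM) hardly at all. Bile acid genes gave 11 of 20: the uptake transporter Slco1b2 measured 1144, 2641, 705, 4326 and 6062 CPM, the export pump Abcc2 1164, 1000.1, 883, 991 and 1083 CPM. That count was 7 without liver 3 and 6 on the count total alone, beside 29.8% and 44.9% of all genes.

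Genes that differ between the sexes were among the widest of all in these 5 males. Of 21 major urinary protein genes listed, 10 had a mean of at least 1 CPM. All 10 differed over 4-fold, against 9.33% of all genes, with a median CV of 113%. Their median deviation was -1.46, -1.72, -2.84, 0.97 and 1.05 in livers 1 to 5. The filter is on the mean, so a gene high in 1 liver can pass through that liver alone. Mup5, with 0, 0, 0, 1 and 140 counts, did so, and its wide range follows from the filter. Mup3 (951, 1142, 321, 7230.2 and 9211 CPM) and Mup7 (4.89, 0.755, 0.78, 75.3 and 36.3 CPM) were high in livers 4 and 5, and Mup20 was highest in liver 5. Mup genes are near-identical copies of each other, and reads can be split between them, so a single member's value is uncertain. How reads that fit several copies were counted was not given, so the sum of the Mup genes is uncertain as well. That sum was 5465, 10711, 3205, 20135 and 41111 CPM in livers 1 to 5. Of the other male-biased genes the orders differed: 16 of 17 members of that list, Mup20 and Mup3 among them, passed 2-fold, but Cyp4a12a and Cyp4a12b, chosen after their values were seen, measured 100.3, 40.7, 46.2, 22.5 and 15 CPM and 87.3, 27.7, 34.5, 11.1 and 9.56 CPM, highest in liver 1 and lowest in liver 5. Female-biased genes gave 8 of 9, led in RPKM by Fmo2 at 69.4, 101, 89.4, 36.9 and 62.5 CPM.

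**Figure D3:**
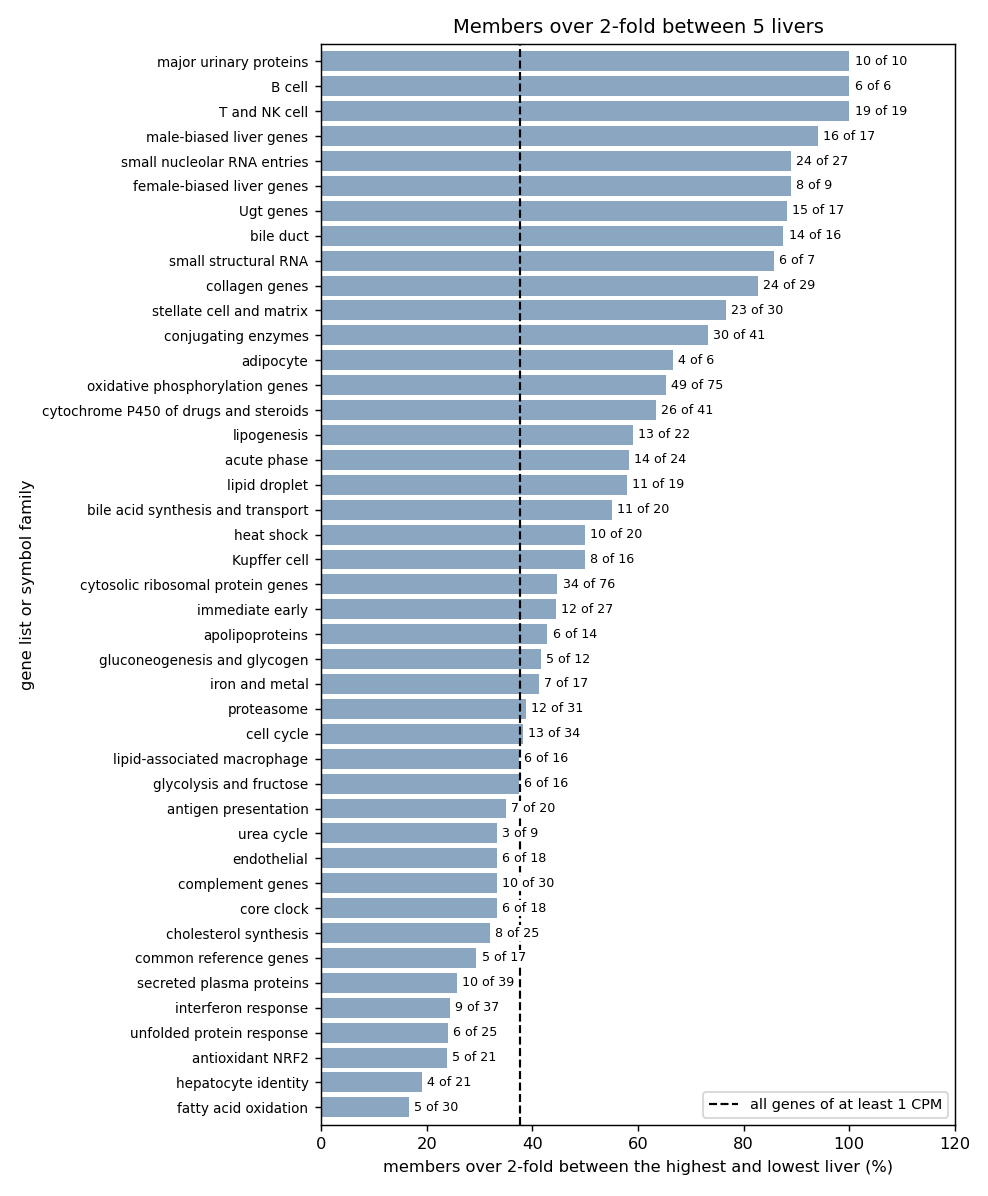
Share of the members of each gene list or symbol family, among those with a mean of at least 1 CPM, that differed over 2-fold between the highest and lowest of 5 livers (bars, percent, from 0), with the counts beside each bar; the dashed line is the 37.7% of all genes. Major urinary proteins, B cell and T and NK cell lists stand at the top, and hepatocyte identity and fatty acid oxidation at the bottom.

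Genes of matrix and bile duct ran opposite to the urinary proteins. Of 29 collagen genes with at least 1 CPM, 24 differed over 2-fold and 12 over 4-fold; 19 were highest in liver 3 and 18 lowest in liver 5, against 25.2% and 25.1% of all genes with at least 1 CPM. Their median deviation in livers 1 to 5 was 0.30, -0.19, 0.76, -0.80 and -1.06. Col1a1 and Col1a2, the chains of fibrillar type I collagen, measured 305, 71.8, 364, 98.6 and 50.4 CPM and 246, 113, 291, 110.3 and 74.5 CPM; they were singled out after their values were seen. For Col1a1 livers 1 and 3 lay above the other 3 with no overlap. The collagen that did not vary was Col14a1, which coats fibrils, at 228, 213, 222, 247 and 207 CPM, a CV of 6.9%. Within the wider stellate cell and matrix list, 23 of 30 passed 2-fold: the crosslinking enzyme Loxl1 ranged most, 19.7, 8.85, 24.6, 3.37 and 2.2 CPM, and Dcn, decorin, was the most abundant by RPKM and narrow, 425, 555, 391, 486 and 520.0 CPM. Lrat, the enzyme with which quiescent stellate cells store retinol, was again named after its values were seen; at 60.7, 67.3, 42.6, 114 and 132 CPM it was highest in livers 4 and 5, unlike the collagens.

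Bile duct genes shared an order. Of the 16 members with at least 1 CPM, 14 differed over 2-fold and 13 over 4-fold, 14 were highest in liver 3, and all 16 were lowest in liver 4 or 5; over all genes these shares were 25.2% and 38.2%. Krt19, a keratin of duct cells, was at 7.26, 5.61, 16.3, 0.696 and 1.7 CPM. The adhesion molecule Epcam and the factor Sox9, both picked out after their values were seen, gave 16, 22.1, 40.05, 3.83 and 7.04 CPM and 21.6, 20.1, 36.7, 7.43 and 7.93 CPM. Spp1, osteopontin, had the highest RPKM but another order, 441, 815, 802, 414 and 454 CPM; macrophages also make it. Livers 1 and 2 lay close together in this list: the median deviation was 0.01, 0.08, 0.96, -1.65 and -1.24. For the 4-fold threshold, the background was 9.33%.

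Lymphocyte genes were scarce and wide. All 19 T and NK cell genes with at least 1 CPM differed over 2-fold, and so did all 6 of the B cell list. Ccl5, a chemokine of activated T cells, measured 11.8, 3.4, 6.98, 2.44 and 2.39 CPM, and Gzmk, a granzyme, 3.4, 1.56, 1.13, 0.348 and 0.566 CPM; both were highest in liver 1. Klrb1c, an NK cell receptor, was the steadiest at 0.698, 1.83, 1.56, 0.987 and 1.76 CPM, and its lowest value was in liver 1. The NK receptor Klrd1, named after the fact, stood at 1.72, 8.42, 3.2, 3.48 and 8.3 CPM, an order that Ccl5 and Gzmk did not follow. At these levels counting error is large: the median counting CV of the list was 16.4%, against 5.08% over all genes, and the background share among genes of 1 to 10 CPM was 54.7%. Jchain, which joins antibody units and marks plasma cells, gave 0.373, 8.25, 4.13, 2.55 and 4.84 CPM, lowest by far in liver 1.

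The macrophage lists differed in part. The Kupffer cell list had 8 of 16 over 2-fold, 7 of them over 4-fold, and 13 of 16 members were highest in liver 4 or 5, as were 38% of all genes. The widest member, with 1, 2, 0, 65 and 32 counts, passed the filter on the mean through livers 4 and 5 alone. Its range and its highest liver follow from the filter. Cd5l, a secreted protein of resident macrophages, was at 253, 434, 211, 793 and 1059 CPM, and Clec4f, the lectin found on mouse Kupffer cells and named after its values were seen, at 54.8, 77.3, 27.7, 209 and 312 CPM. Csf1r, the growth factor receptor of all macrophages, was steady, 126, 98.9, 132, 139 and 150.3 CPM. The lipid-associated macrophage list stayed at the background, 6 of 16, with none over 4-fold, and 6 of 16 were highest in liver 4 or 5. In both lists 12 of 16 members were lowest in liver 1 or 3, against 42.8% of all genes. In the lipid-associated list Lyz2, lysozyme, measured 413, 1000.5, 344, 590.0 and 839.6 CPM and Clec7a, a glucan receptor, 123, 270.4, 102, 243 and 380.3 CPM, high in livers 2 and 5, while cathepsin B (Ctsb) had a CV of 9.89%. Endothelial genes gave 6 of 18, near the background: the scavenger receptor Stab2 of sinusoids gave 155, 126, 145, 144 and 140.4 CPM, and the widest was Cd34, a marker of capillary endothelium, at 23.7, 33, 38.4, 8.76 and 10.4 CPM, low in livers 4 and 5. Neutrophil genes were few, 3 of 13 with at least 1 CPM, led by S100a8 at 3.63, 11.8, 2.77, 11.3 and 26.5 CPM.

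**Figure D4:**
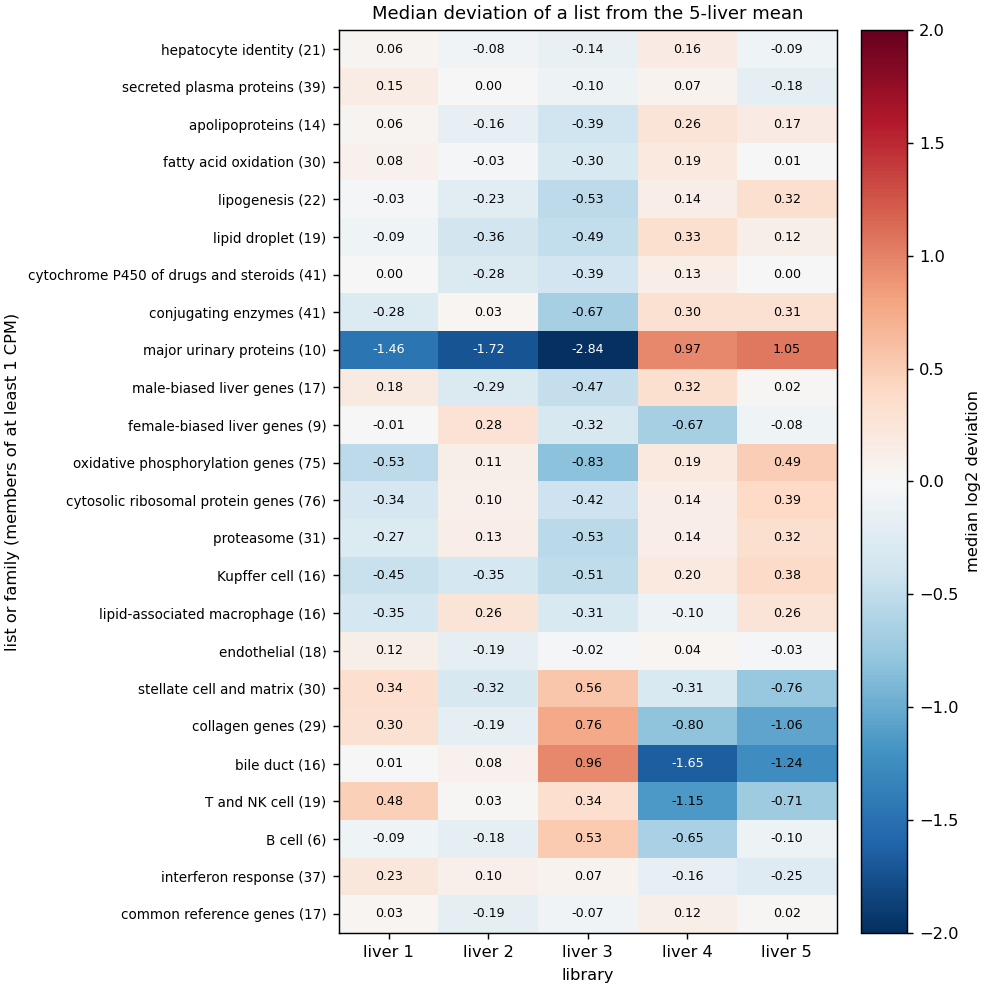
Median over the members of each list (rows, members with at least 1 CPM in brackets) of the log2 deviation of 1 liver (columns) from the gene's mean level; red is above and blue below, and colours end at -2 and 2 while the printed values do not. Major urinary proteins are blue in livers 1, 2 and 3 and red in 4 and 5; collagen, bile duct and T and NK cell genes are red in liver 3 and blue in livers 4 and 5.

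Small genes of the basic machinery moved with exon length, and this has to be read beside the lists. Among the 171 genes with under 0.5 kb of exon, 131 differed over 2-fold and the median CV was 50.5%; in every bin above 1 kb the median CV lay between 22.2 and 23.9%. The median deviation of these shortest genes was -0.87, 0.17, -0.82, 0.10 and 0.72 in livers 1 to 5, and that of the 756 genes of 8 kb or more was 0.14, -0.03, 0.20, -0.12 and -0.27. Livers 1 and 3 were thus low in short and high in long transcripts, and liver 5 the reverse, as in the plot by exon length. Livers 1 and 3 also had the lowest Rpph1 shares and liver 5 the highest. The part of the Rpph1 share in the list results was not tested. For exon length, counts after subtraction of each bin's median are given below.

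**Figure D5:**
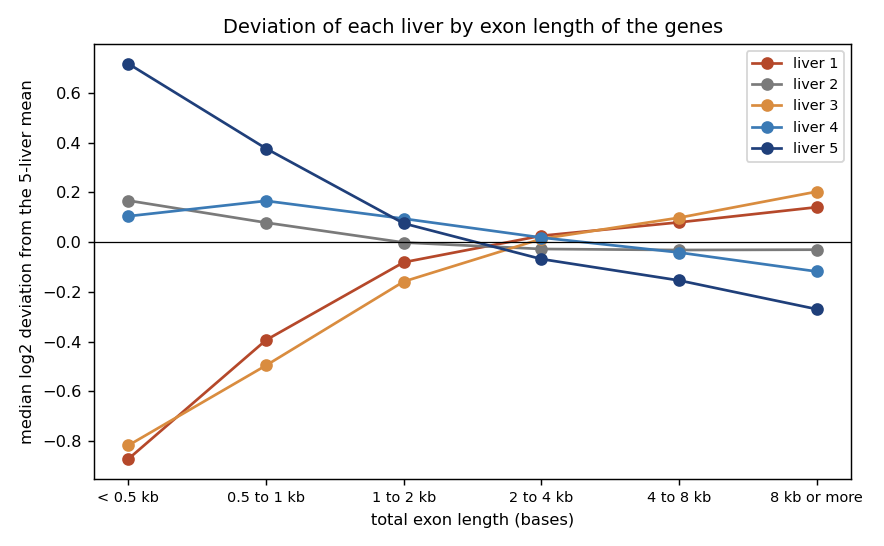
Median log2 deviation of each liver from the gene's mean level (vertical axis) for genes in 6 bins of total exon length (horizontal axis); each line is 1 liver. Lines of livers 1 and 3 run upward from below -0.8 in the shortest bin, the line of liver 5 runs downward from 0.72, and all lie close to 0 between 2 and 4 kb.

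Families of short genes carried this pattern. Nuclear genes of oxidative phosphorylation, subunits of the respiratory chain and ATP synthase, passed 2-fold in 49 of 75; 68 were lowest in liver 3 and 56 highest in liver 5, against 30.2% and 24.3% of all genes. After each liver's median deviation within 6 bins of exon length was subtracted, a step chosen after the length pattern was seen, 32 of the 75 passed. Cytosolic ribosomal proteins went from 34 to 24 of 76 and small nucleolar RNA entries from 24 to 13 of 27. Over all genes the step left 4875 in place of 5088 over 2-fold. It left 10 of 10 urinary proteins, 15 of 16 bile duct genes, 23 of 29 collagens and 18 of 19 T and NK cell genes over 2-fold, against 10, 14, 24 and 19 before the step. How much of the length pattern stayed within the bins was not tested, nor was its part in the order of the livers. Proteasome subunits were near the background in the share over 2-fold, 12 of 31, but had the same order. Of the 31, 23 were lowest in liver 3 and 20 highest in liver 5, against 30.2% and 24.3% of all genes. Psmb3 was the widest at 59.4, 154, 47.5, 126 and 228 CPM and Psmd11 the narrowest at 97.6, 95.8, 81.2, 96.1 and 98.8 CPM.

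Genes often used as references were not all steady. Of 17 such genes 5 differed over 2-fold. Tbp was the steadiest, 13.3, 14.2, 13.1, 13 and 13.6 CPM, a CV of 3.76%, and B2m, the light chain of class I MHC, the most abundant by RPKM, 1145, 922, 1000.4, 1174 and 1028 CPM. Rpl13a, a short ribosomal protein gene, was the least steady, 266, 676, 231, 596 and 992 CPM, low in livers 1 and 3 and highest in liver 5 as the short genes were. Actb and Gapdh, named after their values were seen, had CVs of 22.5% and 26.6%, near the median of all genes.

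Responses to stress, time and immune signals did not share 1 order, though some lists had their own. Lowest in liver 4 or 5 were 26 of 37 interferon and 14 of 20 antigen presentation genes, against 38.2% of all genes. Highest in liver 4 or 5 were 15 of 20 heat shock genes, against 38%. That count was 11 of 25 for the unfolded protein response and 11 of 21 for antioxidant genes. Highest in liver 1 or 3 were 19 of 27 immediate early genes, against 45.2%. Interferon genes were below the background, 9 of 37 with 0 over 4-fold; Gbp3, a guanylate-binding protein, was the narrowest at 27.3, 26.1, 23.7, 26.4 and 25.2 CPM, and Oasl2 the widest at 31.2, 11.7, 34.2, 14.2 and 8.99 CPM. Antigen presentation gave 7 of 20 and the unfolded protein response 6 of 25, where the chaperone Canx had 442, 484, 426, 511 and 474 CPM and the asparagine synthetase Asns 2.84, 2.7, 2.03, 1.1 and 0.692 CPM. Antioxidant genes passed in 5 of 21: Gsr, glutathione reductase, was narrow, 90.6, 82.3, 83, 91.9 and 91.5 CPM, and Prdx1, a peroxiredoxin, wide and highest in livers 4 and 5, 891, 2085, 673, 2652 and 3463 CPM. The counts depended on scaling and on single livers: on the count total alone, with 44.9% of all genes over 2-fold, interferon genes gave 20, antigen presentation 11 and antioxidant genes 8. Without liver 5 interferon genes gave 5, and without liver 3 antigen presentation gave 3, beside 31.3% and 29.8% of all genes. Heat shock genes gave 10 of 20, of which Hspd1 was the narrowest at 387, 359.6, 321, 391 and 348 CPM and Cryab the widest at 5.63, 3.02, 9.98, 2.44 and 2.33 CPM.

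Time of day is not in the labels, and the clock genes give the spread itself. Of 18 core clock genes 6 differed over 2-fold. Arntl, whose level swings over the day in liver, was narrow, 2.75, 2.91, 3.04, 3.08 and 2.83 CPM, with a counting CV of 13.4% above its own CV of 4.75%. Nr1d1, the repressor of Arntl, was wide, 72.5, 16.9, 64.6, 28.3 and 19.4 CPM, high in livers 1 and 3, whereas its relative Nr1d2 gave 186, 301, 181, 237 and 321 CPM, lowest in those livers. Without liver 2 the clock count was 2, beside 33.6% of all genes. Immediate early genes passed in 12 of 27: Egr1, which rises within minutes of a stimulus, measured 44.5, 13.4, 25.2, 12.1 and 7.74 CPM, and Mcl1, a survival protein, 227, 289, 229.7, 258 and 268 CPM. The immediate early count was 6 without liver 3 and 19 on the count total alone, beside 29.8% and 44.9% of all genes. Cell cycle genes stood at the background, 13 of 34, with the replication clamp Pcna at 36.3, 60.4, 31, 56.3 and 79.3 CPM and the cyclin Ccne2, the widest, at 3.73, 10.4, 5.15, 17.7 and 23.8 CPM.

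Markers of other tissues differed in what they showed. No kidney or skeletal muscle gene reached a mean of 1 CPM; Kap, Nphs1, Slc12a1 and Slc22a6 of kidney and Myh1, Myh2 and Myh4 of muscle had no count in any of the 5 livers. A count of 0 allows up to 3 counts, which is 0.117 to 0.189 CPM depending on the liver and covers counting error only. The same held for the fat hormones Lep and Retn, for Alpi and Defa24 of intestine, and for the pancreatic enzymes Prss1, Amy2a2 and Amy2b. Of the 10 adipocyte genes, however, 6 reached a mean of 1 CPM and 4 of those differed over 2-fold; the list summed to 2489, 1368, 2518, 1237 and 1140.0 CPM, most of it Pck1, which hepatocytes make. Fabp4, a fatty acid binder that macrophages and endothelium also make, gave 53, 123, 43.4, 93 and 90.9 CPM, and Adipoq, the hormone adiponectin, had 3 counts in liver 1, 1 in liver 2 and 0 in the others; both were named after their values were seen. Cela1, a pancreatic elastase, was present at 8.24, 17.7, 8.23, 14 and 20.001 CPM. Fabp2, a fatty acid binder best known from intestine, measured 122, 316, 64.9, 497 and 841 CPM, in the order of Fabp1; it was the only abundant member of that list. The 6 globin genes of the red cell list, Hba-a1, Hba-a2, Hbb-b1, Hbb-b2, Hbb-bs and Hbb-bt, are listed at 0 in every liver, although Alas2, the heme synthesis enzyme of red cell precursors, was at 45.4, 37.9, 30.9, 57.9 and 46.7 CPM. Globin genes are near-identical pairs, and how reads that fit 2 copies were counted was not given in the sources used here, so these zeros say nothing about blood in the samples.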

How the data were processed

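RNA of 5 livers was analysed. The submitters' processing notes name STAR, HTSeq, bcl2fastq 2.18.0.12 and the mouse build mm10. Libraries were made with an mRNA kit, per the labels. The annotation, counting mode, strand setting and treatment of reads that fit several copies were not given in the sources used here, so overlapping genes and near-identical families are uncertain. For each gene the authors deposited a raw count, an RPKM value and the total exon length in bases, over 25078 genes.

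Counts were scaled with edgeR's TMM (R 4.3.3, edgeR 4.0.16) and expressed as CPM. Spread is the CV of CPM over 5 livers, beside the Poisson counting CV, for 13487 genes with a mean of at least 1 CPM; levels between genes use the deposited RPKM. Principal components used log2 CPM with a prior count of 2. A total of 43 gene lists holding 862 symbols (847 in the table, 52 in more than 1 list) and symbol families were described; the members and lists were chosen with earlier results of these data known. Named genes are the 3 markers, the 20 highest in RPKM, the 15 of highest and of lowest CV at a mean of at least 10 CPM, and in each list the highest RPKM, highest CV and lowest CV, plus members of other tissues at 0; 2 of these genes are not reported here. Gene classes came from the RefSeq gene table, which matched 24974 genes, and promoters from the RefSeq table of GRCm38.p6. Replicate pairs differed by a chi-square per degree of freedom of at least 22.9, so each library counts once. The 3 columns of the other genotype were not used. Spread measures were tested on simulated data. Alternatives were RLE scaling (DESeq2 1.42.0), the count total alone, deposited RPKM, other filters, other subsets of livers, no Rn45s and Rpph1, and subtraction of exon-length medians, the last chosen after seeing the data. Nothing was compared between genotypes.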

Additional observations from a re-analysis of the deposited data

Results flagged for a closer look

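In 8 of the 146 named genes with any count, 1 liver stood apart: its gap to the nearest other liver made up over 0.71 of the whole range of 5. The cutoff flags about 1 in 20 groups of normal values that were not chosen by their spread. Many of these genes were chosen by their CV in the same livers. The 8 of 146, or 5.48%, therefore cannot be set against that rate. List shares and library measures were screened too and are not among the 146. H19 was at 34.4 CPM in liver 2, against 4.0 to 9.87 in the others. Cyp4a10, a fatty acid hydroxylase, stood at 246 CPM in liver 1, where the others ran from 86.8 to 105. The complement gene C6, also apart in liver 1, gave 311 CPM beside 205 to 232. Mup5 measured 8.81 CPM in liver 5 and 0 to 0.058 elsewhere, and as a near-identical copy of other Mup genes it is uncertain. Sult5a1, a sulfotransferase, was at 4.53 CPM in liver 4 and at 0.585 to 1.2 in the others. Mylpf, a muscle light chain near the detection limit, gave 1.12 CPM in liver 1 against 0.507 to 0.647. Psmd11 was low in liver 3 at 81.2 CPM, the others at 95.8 to 98.8, and Slbp low in liver 1 at 13.0 CPM, the others at 13.4 to 13.6, a gap smaller than its counting error. The unfolded protein response list held 0.392% of the counts in liver 5 and 0.430 to 0.440% in the others.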

How the results depend on the processing

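The median CV, 23.3% over 5 livers, was 14.6% in livers 2, 4 and 5 alone, 8.48% in livers 1 and 3 alone and 27.1% as edgeR's tagwise biological coefficient of variation, ran from 21.6 to 24.8% with 1 liver left out, and stayed within 20.7 to 26.4% under the other settings. The 5088 genes over 2-fold became 2711 at a mean of at least 10 CPM, 1328 in livers 2, 4 and 5 alone and 450 in livers 1 and 3 alone; with 1 liver left out they ran from 3972 (without liver 3) to 4812, and on the count total alone they were 6070. Fewer livers or fewer genes lower such a count by construction. The 418 genes that held 50% of the counts were 187 on shares made from RPKM, since length then no longer counts, and 376 to 452 with 1 liver left out. Component 1 held 74.0% of the variance, 84.0% over the 500 most variable genes, and 65.4 to 85.8% with 1 liver left out. Of the 20 leading genes 19 or 20 stayed with 1 liver left out. Scaling by the count total changed the number of members over 2-fold by more than 1.5 times in 10 of 41 lists, RLE in 0 and leaving out liver 3 in 8. On the count total alone the CV of 40 of the 146 named genes with any count moved by at least 50% of its value. With RLE scaling 8 moved that far. No paired analysis was possible because 1 group alone is described. Depth limits genes below 10 CPM, and 5 livers limit every estimate of spread.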
